A study of Rattus norvegicus with 10 samples.

Results

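Epithelial chemokines and alarmins are the signals by which the cells lining the gut address immune cells, and 10 of their genes (Ccl20, Ccl25, Ccl28, Cx3cl1, Cxcl16, Il18, Il33, Il1a, Il1rn and Lif) were followed in the distal colon of rats fed a bile acid. The genes were taken by symbol from a table of 23422 genes, and all 10 were found. The animals were male Wistar Munich rats, single-housed in metabolic cages, whose ages are not given in the labels. After 3 days of acclimatization the control rats stayed on standard chow and the cholate rats received the same chow with 1% w/w sodium cholate (cholic acid is a primary bile acid made in the liver) for 10 days. RNA came from cells released from the inverted distal colon with EDTA, and sequencing took, from each diet, the 5 animals whose RNA was most concentrated: control rats 1, 2, 5, 6 and 9 and cholate rats 3, 4, 7, 8 and 11. The labels give no allele, transgene or pooling.

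Chemokines are small secreted proteins that steer leukocytes along a gradient by binding G protein-coupled receptors. CCL28, CCL25 and CCL20 are known mucosal attractants, for IgA plasma cells, gut-homing T cells and CCR6-bearing lymphoid cells, while CX3CL1 and CXCL16 are made as membrane-anchored proteins that proteases can shed. IL-1 alpha, IL-18 and IL-33 belong to the IL-1 family and can be held inside epithelial cells until damage or processing releases them, and IL-1 receptor antagonist and LIF are, respectively, a decoy ligand of the IL-1 receptor and a cytokine that signals through gp130.

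Levels are given in CPM, the TMM-scaled number of counts in 1e6, and changes as log2 of cholate over control, whose SE is approximate. Adjusted p values come from the edgeR quasi-likelihood test of 12385 genes. To be called, a gene needed an adjusted p below 0.01 and a change of more than 2-fold, the study's own limits. Total counts per library ran from 14337356 to 45285762, at which 3 counts correspond to between 0.0616 and 0.228 CPM. Along the first principal component, which held 46.8% of the variance, control rats 5 and 9 and cholate rats 8 and 11 lay above 0. The other 6 libraries lay below 0, at most at -26.7. Control rat 5, at 8.08, was between these 6 and control rat 9 and cholate rats 8 and 11 (57.0 to 79.6). Genes with short coding sequences ran higher relative to long ones in the 4 libraries above 0 (log2 difference from -0.12 to 0.80) than in the 6 (from -0.41 to -0.13). Here control rat 5 (-0.12) and cholate rat 4 (-0.13) nearly met. Results are also given within each set. Of the 11 epithelial markers, 1, the keratin Krt20, was called higher, beside 1.10% of all genes tested, and the other 10 were not called. Their log2 changes ran from -0.33 to 1.26, and Krt20 overlaps the antisense gene LOC103695157. The 11 markers summed to between 17033 and 23871 CPM in controls and between 24386 and 35957 CPM on cholate. Those of T and NK cells summed to no more than 33.9 CPM in any library, of macrophages and dendritic cells to no more than 47.0 CPM and of B and plasma cells to no more than 5.75 CPM.

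Of the 10 genes, Ccl28 and Cx3cl1 were called lower on cholate, none was called higher and the other 8 were not called. All 10 had passed the filter on low counts. Over all genes tested 2.12% were called lower and 1.10% higher. At an adjusted p under 0.05 with no fold limit, 2 were lower (Ccl28 and Cx3cl1) and 2 higher (Il1a and Il1rn), against 7.28% of all genes lower, 6.48% higher and 13.8% in either direction. At an unadjusted p under 0.05 the share was 29.0% of all genes. The median log2 change of the 10 was -0.28, beside -0.01 for all genes tested. In bulk RNA, fewer cells of a type and less RNA per cell cannot be told apart.

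**Figure D1:**
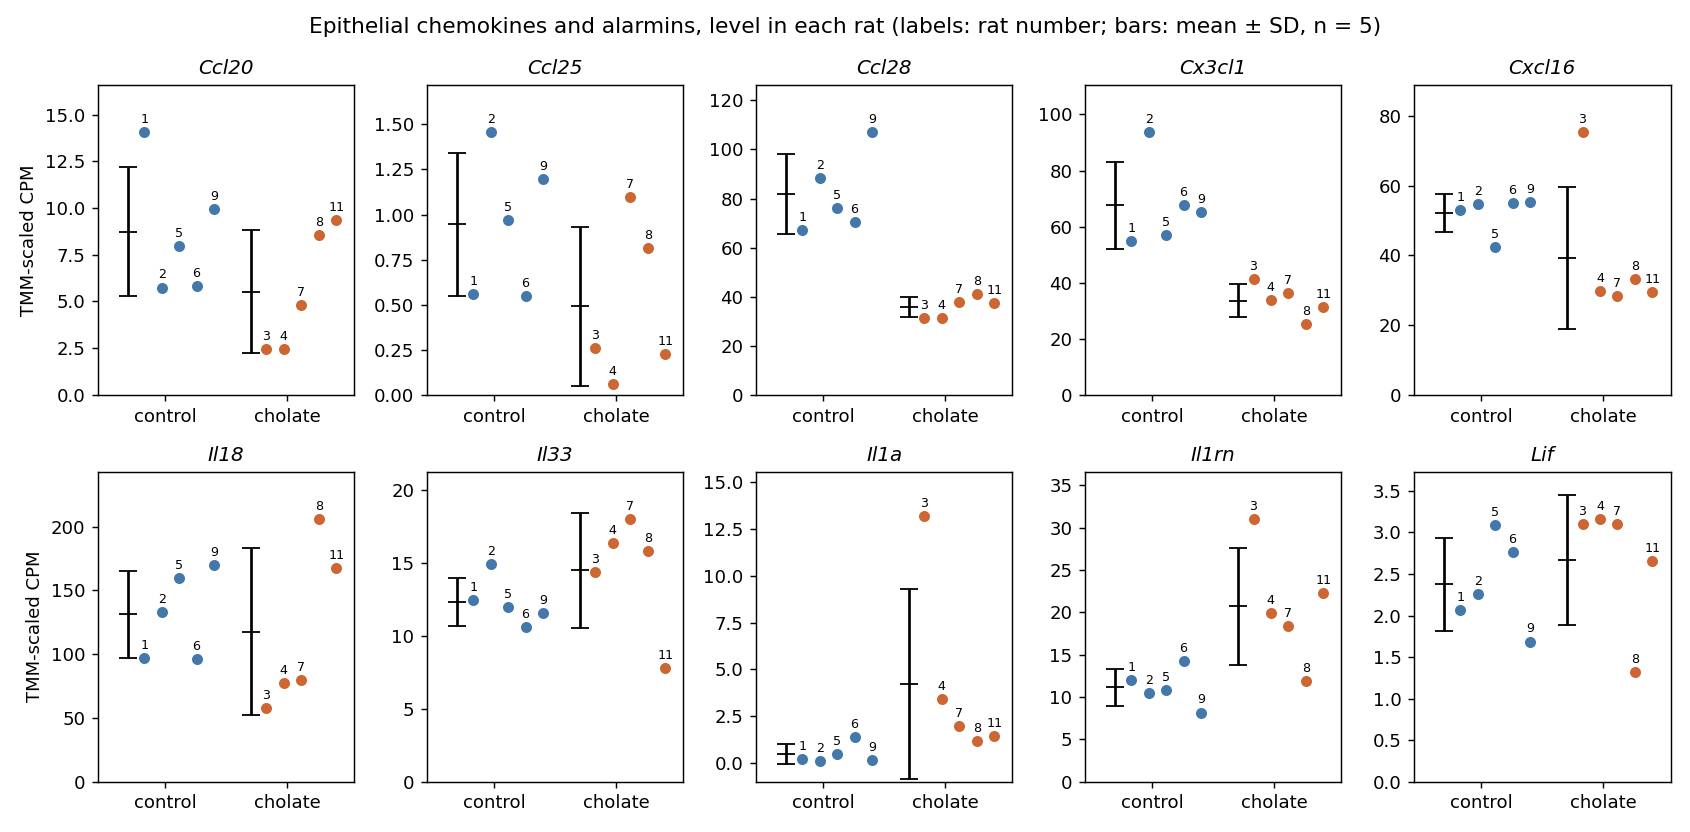
Level of each gene in TMM-scaled CPM (vertical axes, a separate linear scale per gene) in 5 control (blue) and 5 cholate (orange) rats, with rat numbers beside the points and bars for mean ± SD. The diets do not overlap for Ccl28 and Cx3cl1, and cholate rat 3 is the highest library for Cxcl16, Il1a and Il1rn.

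Among the secreted chemokines, Ccl28 (Entrez 114492, rn6 chromosome 2, 52379341 to 52403979, plus strand) was both abundant and lower on cholate. It stood at 67.1, 88.4, 76.0, 70.3 and 107.0 CPM in control rats 1, 2, 5, 6 and 9. On cholate it stood at 31.4, 31.4, 37.7, 41.1 and 37.5 CPM in rats 3, 4, 7, 8 and 11. Every cholate rat was below every control rat, and the 5 cholate values lay close together. The mean fell from 81.8 ± 16.3 to 35.8 ± 4.25 CPM (SD, n = 5 rats per diet), a log2 change of -1.19 (SE 0.16, edgeR adjusted p = 0.00145), or 2.28-fold. Within the set of 6 libraries the change was -1.14 (adjusted p = 0.000643) and within the set of 4 it was -1.26 (adjusted p = 0.00952), so the call held in both, where 5.48% and 0.428% of all genes were called lower. It also held whichever rat was left out, with log2 changes from -1.25 to -1.09. The locus overlaps the antisense gene LOC102547360, and reads of the 2 genes may not have been told apart, as no source used here says if strand was used in counting.

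Cx3cl1 (Entrez 89808, chromosome 19, 10644267 to 10654861, minus strand), the membrane-anchored fractalkine, had 54.9, 93.6, 56.9, 67.6 and 65.3 CPM in control rats 1, 2, 5, 6 and 9. The cholate rats 3, 4, 7, 8 and 11 had 41.3, 33.8, 36.5, 25.3 and 31.4 CPM. The diets did not overlap, and control rat 2 was the highest of all. The mean fell from 67.7 ± 15.5 to 33.7 ± 5.96 CPM (SD, n = 5), a log2 change of -1.01 (SE 0.18, edgeR adjusted p = 0.00607). This fold of 2.01 sits at the fold limit, and the call was lost in 16 of 23 alternative settings, among them 9 of the 10 fits that left out 1 rat, with no change of direction. Of those 10 fits only the one without cholate rat 3 kept it (-1.09, adjusted p = 0.00823). Some of the others missed only the limit on adjusted p, which reached 0.0187, as without control rat 1 (-1.07, adjusted p = 0.0114). Without control rat 2 the change was -0.86 (adjusted p = 0.0149). Within the set of 6 libraries it was -0.92 (adjusted p = 0.00619) and within the set of 4 it was -1.15 (adjusted p = 0.0149), neither of them called. Over all genes, 6.80% had all cholate values below all control values and 6.30% all above, beside 2 and 0 of the 10 genes here.

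Endothelial cells also make fractalkine, and the 8 markers of endothelium and blood summed to between 13.1 and 27.8 CPM in controls and between 7.74 and 12.4 CPM on cholate. Of these 8, 3 passed the filter and 1 was called lower, beside 2.12% of all genes tested. This was Vwf, the von Willebrand factor (3.60 ± 0.558 to 1.10 ± 0.419 CPM, SD, n = 5). The defining endothelial genes Cdh5 and Kdr were near 0, at 0.0413 and 0.0683 CPM in controls. The 6 smooth muscle markers also summed lower on cholate, from 8.17 to 13.5 CPM against 42.4 to 61.9 CPM in controls. Only 2 of the 6 passed the filter, with 1, desmin (Des), called lower, beside the same 2.12% of all genes. Acta2, Actg2, Cnn1 and Tagln had means under 0.5 CPM. The 7 tuft cell markers summed to between 63.1 and 152.3 CPM on cholate and between 126.4 and 266.9 CPM in controls, with none of the 7 called by edgeR and 2 at an unadjusted p under 0.05, against 29.0% of all genes. The part of these cells in the change of Ccl28 or Cx3cl1 was not tested.

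The stretches of 250 bases before the annotated starts of both genes, from RefSeq on the assembly GRCr8, are shown because these were the 2 genes called lower. They lie at chr2:53333821-53334070 on the plus strand and chr19:10242821-10243070 on the minus strand and read 5′ to 3′ with motif matches in capitals.
Ccl28: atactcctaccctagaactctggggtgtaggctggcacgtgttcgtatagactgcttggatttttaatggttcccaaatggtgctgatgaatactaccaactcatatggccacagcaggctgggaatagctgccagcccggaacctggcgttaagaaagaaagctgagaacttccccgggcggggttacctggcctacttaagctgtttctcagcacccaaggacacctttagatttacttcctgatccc
Cx3cl1: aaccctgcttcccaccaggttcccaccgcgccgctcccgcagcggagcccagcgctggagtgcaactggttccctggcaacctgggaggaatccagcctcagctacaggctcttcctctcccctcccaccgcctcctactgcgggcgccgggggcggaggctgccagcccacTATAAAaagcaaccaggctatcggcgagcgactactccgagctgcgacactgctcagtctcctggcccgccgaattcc
Both strands were searched for the NF-kB consensus, the AP-1 motif TGANTCA, the STAT motif TTCNNNGAA and the TATA box TATAAA, which had a match in 6.33%, 6.34%, 7.67% and 12.9% of 33469 windows of the same length. The Cx3cl1 window held 1 match, a TATA box from base -78 to -73 before the start, and the Ccl28 window held none of these letters. GC made up 66.4% of the Cx3cl1 window and 50.4% of the Ccl28 window.

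Ccl20, the ligand of CCR6, did not differ beyond the spread between rats. It stood at 14.1, 5.75, 7.98, 5.85 and 9.96 CPM in control rats 1, 2, 5, 6 and 9 and at 2.47, 2.46, 4.82, 8.58 and 9.34 CPM in cholate rats 3, 4, 7, 8 and 11. The 3 lowest libraries were cholate rats 3, 4 and 7, while cholate rats 8 and 11 overlapped the controls. The log2 change was -0.67 (approximate 95% interval -1.62 to 0.27, edgeR adjusted p = 0.339). Within the set of 6 libraries it was -1.36 (adjusted p = 0.0403) and within the set of 4 it was -0.04 (adjusted p = 0.959), and the difference between the sets was not tested. Its window, chr9:91836909-91837158 on the plus strand of GRCr8, held the single NF-kB match found upstream of the 9 genes with a window, at bases -89 to -80, in capitals.
Ccl20: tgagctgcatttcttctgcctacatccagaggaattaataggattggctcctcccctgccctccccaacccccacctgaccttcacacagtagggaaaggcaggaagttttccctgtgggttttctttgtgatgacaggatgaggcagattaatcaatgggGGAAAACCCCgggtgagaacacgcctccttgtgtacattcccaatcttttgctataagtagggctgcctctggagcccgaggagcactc

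Ccl25, which draws CCR9-bearing T cells chiefly to the small intestine, was near the limit of detection, with 122 counts over the 5 controls and 67 over the 5 cholate rats. Its level ran from 0.547 to 1.46 CPM in controls and from 0.0616 to 1.10 CPM on cholate. The ranges overlapped, and the log2 change of -0.93 had an interval of -2.33 to 0.48 (edgeR adjusted p = 0.383). Without cholate rat 7, the highest of its diet, it was -1.58 (adjusted p = 0.157).

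Cxcl16, the membrane-anchored ligand of CXCR6 (Entrez 497942, chromosome 10, 57060005 to 57064600, minus strand, overlapping the antisense gene Zmynd15), had 53.2, 54.7, 42.5, 55.1 and 55.3 CPM in control rats 1, 2, 5, 6 and 9. In cholate rats 3, 4, 7, 8 and 11 it had 75.4, 29.8, 28.5, 33.3 and 29.4 CPM. Rats 4, 7, 8 and 11 were below every control and rat 3 was above every control. The log2 change was -0.41 (SE 0.27, edgeR adjusted p = 0.36). Without cholate rat 3 it was -0.78 with an adjusted p of 0.00723, still under the fold limit and so not called.

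Among the alarmins, none was called, and the log2 changes ran from -0.16 for Il18 to 3.10 for Il1a. Il1a (Entrez 24493, chromosome 3, 121824712 to 121836122, minus strand), which encodes IL-1 alpha, was scarce in controls, at 0.210, 0.115, 0.485, 1.39 and 0.163 CPM in rats 1, 2, 5, 6 and 9. On cholate it stood at 13.2, 3.43, 1.98, 1.19 and 1.44 CPM in rats 3, 4, 7, 8 and 11. Control rat 6 reached the range of the cholate rats, and cholate rat 3 was far above the other 4. The counts summed to 76 in controls and 636 on cholate. The log2 change of 3.10 (SE 0.86, interval 1.21 to 4.99) had an edgeR adjusted p of 0.0362 and was not called. It was 2.04 without cholate rat 3 and 4.09 without control rat 6, and DESeq2, which called 6.36% of all genes, called it (3.17, adjusted p = 0.000827). The edgeR adjusted p was at least 0.05 in 6 of 10 leave-one-out fits, reaching 0.0944. Within the set of 6 libraries the change was 3.34 (adjusted p = 0.0576) and within the set of 4 it was 1.91 (adjusted p = 0.165).

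The Il1a window, chr3:136990018-136990267 on the minus strand of GRCr8, is shown because it held the single AP-1 match found upstream of these genes, at bases -12 to -6, besides TATA box matches at -237 to -232 and -32 to -27.
Il1a: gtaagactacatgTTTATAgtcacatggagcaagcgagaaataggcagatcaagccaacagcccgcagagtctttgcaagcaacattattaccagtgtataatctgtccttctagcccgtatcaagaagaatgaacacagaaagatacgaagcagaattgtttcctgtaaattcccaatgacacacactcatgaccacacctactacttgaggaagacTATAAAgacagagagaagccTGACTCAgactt
A match is a run of letters and not a measured binding site.

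Il1rn (Entrez 60582, chromosome 3, 1449778 to 1468624, plus strand), whose product occupies the IL-1 receptor without signalling, had 12.0, 10.5, 10.8, 14.2 and 8.16 CPM in control rats 1, 2, 5, 6 and 9. The cholate rats 3, 4, 7, 8 and 11 had 31.0, 19.9, 18.4, 11.9 and 22.2 CPM. Cholate rats 3, 4, 7 and 11 were above every control, and rat 8 lay among the controls. The means were 11.1 ± 2.21 and 20.7 ± 6.93 CPM (SD, n = 5), a log2 change of 0.89 (SE 0.25, edgeR adjusted p = 0.0355), which was not called. It was 0.94 within the set of 6 libraries (adjusted p = 0.00908) and 0.81 within the set of 4 (adjusted p = 0.201). On leaving out 1 rat the adjusted p was 0.05 or more in 8 of 10 fits, reaching 0.0864. The gene overlaps Il36b on the other strand.

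Il18 (Entrez 29197, chromosome 8, 55009666 to 55016286, plus strand), the precursor of which caspase-1 cleaves, had the highest level of the 10. It stood at 96.6, 133.3, 159.6, 96.4 and 169.8 CPM in control rats 1, 2, 5, 6 and 9 and at 57.4, 77.2, 80.0, 206.0 and 167.7 CPM in cholate rats 3, 4, 7, 8 and 11. The 4 highest libraries came from cholate rats 8 and 11 and control rats 5 and 9, the set that lay above 0 on the first principal component. The log2 change was -0.16 over all rats (interval -0.92 to 0.61, edgeR adjusted p = 0.821), -0.57 within the set of 6 (adjusted p = 0.0302) and 0.14 within the set of 4 (adjusted p = 0.708). None of these was called, and the difference between the sets was not tested.

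Il33, a nuclear alarmin that signals through the receptor encoded by Il1rl1, ran from 10.6 to 14.9 CPM in controls and from 7.82 to 18.0 CPM on cholate. Cholate rat 11 was the lowest library and rat 7 the highest, so the control range lay inside the cholate range. The log2 change was 0.24 (interval -0.24 to 0.71, edgeR adjusted p = 0.523). Lif ran from 1.69 to 3.10 CPM in controls and from 1.31 to 3.16 CPM on cholate, with a log2 change of 0.17 (interval -0.45 to 0.79, edgeR adjusted p = 0.747).

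**Figure D2:**
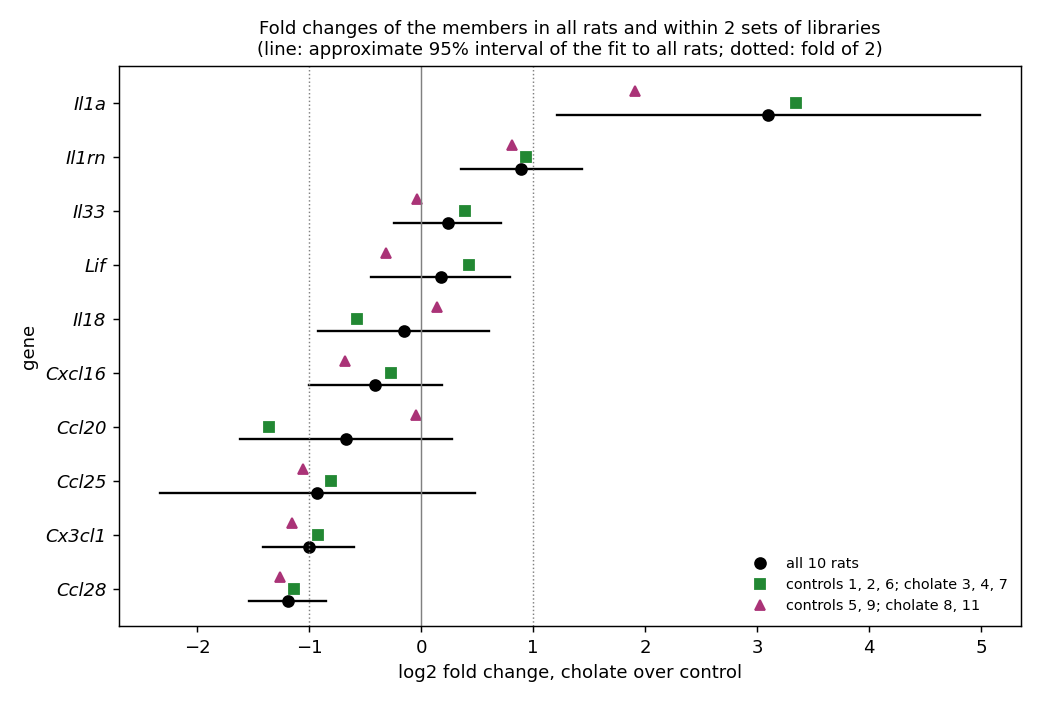
Log2 fold change of cholate over control (horizontal axis) for each gene (vertical axis) in all 10 rats, with an approximate 95% interval, and within the 2 sets of libraries; dotted lines mark a fold of 2. Ccl28 (-1.14 and -1.26) and Cx3cl1 (-0.92 and -1.15) lie near or past the lower line in both sets, while Ccl20 stands at -1.36 and -0.04 and Il18 at -0.57 and 0.14.

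Per kilobase of annotated exon, the control levels ran in the order Il18 (185.2 CPM per kilobase), Ccl28 (60.8), Cxcl16 (30.5), Cx3cl1 (18.2), Ccl20 (9.94), Il33 (4.80), Il1rn (2.15), Lif (0.843), Ccl25 (0.649) and Il1a (0.238). The order was the same per kilobase of coding sequence except that Il1rn stood before Il33. The control rats' values overlapped between the neighbours Cxcl16 and Cx3cl1, Cx3cl1 and Ccl20, Lif and Ccl25, and Ccl25 and Il1a, and were apart between the others. On cholate Ccl28 stood at 26.7 and Cxcl16 at 23.0 CPM per kilobase, and Il1a at 2.14.

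**Figure D3:**
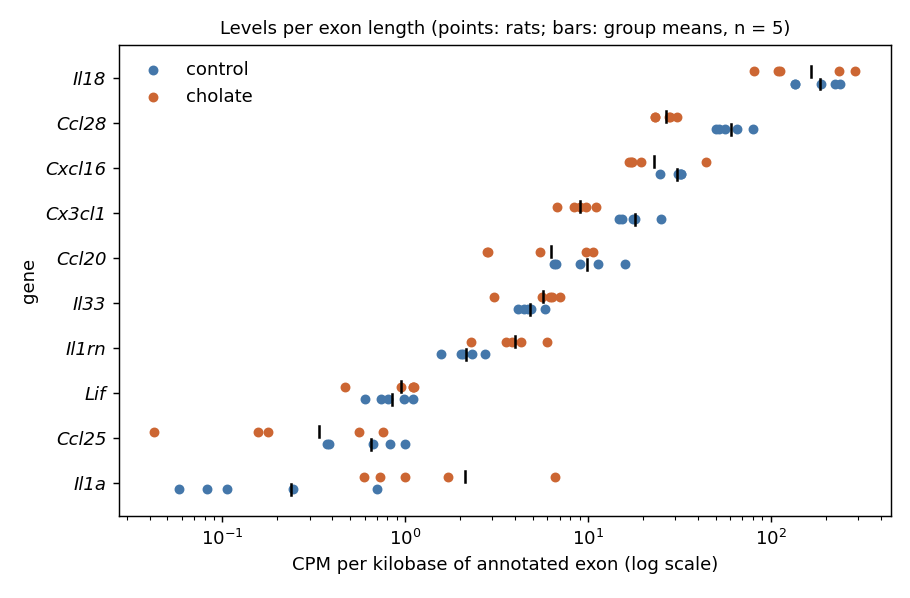
CPM per kilobase of annotated exon (horizontal log axis) for each gene (vertical axis) in every control (blue) and cholate (orange) rat, with group means as bars. Il18 is the highest gene in controls at 185.2 and Il1a the lowest at 0.238.

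The chemokine receptors of these ligands, most of them leukocyte genes, were barely detected. Ccr6, Ccr9, Ccr10 and Cxcr6 had at most 0.249 CPM on average in either diet and did not pass the filter, and Ccr3 had no counts in any library. Cx3cr1, the fractalkine receptor, stood at 0.667 ± 0.295 CPM in controls and 0.468 ± 0.188 CPM on cholate (SD, n = 5; log2 change -0.48, edgeR adjusted p = 0.514). Of 22 chemokine receptor genes listed, 5 passed the filter and none was called, with 1 of the 5 at an unadjusted p under 0.05 by edgeR (29.0% of all genes) and none called by DESeq2. That gene, the scavenging receptor Ackr4, which takes up CCL25 among others, had a log2 change of -0.78 (adjusted p = 0.116) and overlaps the antisense gene Acad11. Cxcr4 had one of 0.70 (adjusted p = 0.368).

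Of 31 other chemokine ligand genes, 7 passed the filter. Among these Ccl6 was called lower and none higher, beside 2.12% lower and 1.10% higher over all genes, with a list median of -0.03. At an unadjusted p under 0.05 by edgeR there were 3, against 29.0% of all genes, and DESeq2 called 2, against 6.36%. Ccl6 (Entrez 287910, chromosome 10, 70798118 to 70802750, minus strand), a CC chemokine of rodents, had 90.2, 78.7, 81.6, 97.3 and 109.7 CPM in control rats 1, 2, 5, 6 and 9. It had 24.1, 26.1, 30.4, 33.0 and 50.0 CPM in cholate rats 3, 4, 7, 8 and 11, all below the controls. The log2 change was -1.49 (SE 0.20, edgeR adjusted p = 0.00176), and the call held whichever rat was left out, though not within the set of 4 libraries (-1.25, adjusted p = 0.0201). Reads shared with its paralog Ccl9, which had 72 counts in controls and 29 on cholate, or with the overlapping antisense gene LOC103693406 make its value uncertain. Of the 13 macrophage and dendritic cell markers, 12 were tested and 1, Flt3, was called higher, beside 1.10% of all genes. Cd163 and Itgam were under 0.5 CPM. The 13 markers summed to between 33.0 and 42.8 CPM in controls and between 35.2 and 47.0 CPM on cholate. Those of granulocytes and mast cells summed to between 12.9 and 24.7 CPM in controls and between 5.01 and 29.8 CPM on cholate, with 2 of the 9 tested and none called by edgeR (1 at an unadjusted p under 0.05, a share of 29.0% over all genes) and the neutrophil genes Mpo and Elane at 0. The part of these cells in the change of Ccl6 was not tested. Ccl5, an attractant of T cells, had 195 counts in controls and 35 on cholate, a log2 change of -2.56 that was not called (adjusted p = 0.0266). Control rat 9 held 85 of the 195 control counts, and without it the change was -1.76 (adjusted p = 0.0243). The adjusted p of Ccl5 was 0.05 or more in 3 of 10 leave-one-out fits, reaching 0.0597.

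In the IL-1 family and its receptors, 14 of 24 genes passed the filter and none was called. At an unadjusted p under 0.05 by edgeR there were 4, against 29.0% of all genes, and DESeq2 called 2, against 6.36%. Il1b, the secreted IL-1 beta, had 0.410 to 0.820 CPM in controls and 1.00 to 4.56 CPM on cholate. All cholate rats were above all controls, and the log2 change of 2.02 (SE 0.43) missed the call by a little (edgeR adjusted p = 0.0123). It was called without cholate rat 8 (2.20, adjusted p = 0.00624). The signalling receptor Il1r1 ran from 1.52 to 16.1 CPM in controls and from 0.369 to 3.53 CPM on cholate (log2 change -2.43, SE 0.69, adjusted p = 0.0389), with control rat 9 inside the cholate range. It was -3.11 without cholate rat 4 (adjusted p = 0.0245), -2.78 within the set of 6 libraries (adjusted p = 0.0286) and -1.04 within the set of 4 (adjusted p = 0.342). On leaving out 1 rat the adjusted p of Il1r1 was 0.05 or more in 7 of 10 fits, reaching 0.0947. Its accessory chain Il1rap had a log2 change of -0.50 (adjusted p = 0.176) and the decoy receptor Il1r2 one of 0.59 (adjusted p = 0.59). For IL-18, the receptor chain Il18r1 had a log2 change of 0.11 (adjusted p = 0.839) and Il18rap one of 1.26 (adjusted p = 0.0996). Il18rap was called higher within the set of 6 libraries (1.401, adjusted p = 0.00267), where 7.93% of all genes were called either way. It was not called within the set of 4 (0.81, adjusted p = 0.499), and the difference between the sets was not tested. Il1rl1, the receptor of IL-33, had 14 counts in controls and 10 on cholate.

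Among 28 genes of processing and release, 22 passed the filter and none was called. At an unadjusted p under 0.05 by edgeR there were 4, against 29.0% of all genes, and DESeq2 called 2, against 6.36%. Casp1, the protease that activates IL-18 and IL-1 beta, stood at 107.0, 85.1, 111.3, 130.5 and 137.6 CPM in control rats 1, 2, 5, 6 and 9. It stood at 50.0, 21.3, 59.0, 84.8 and 57.2 CPM in cholate rats 3, 4, 7, 8 and 11. The diets did not overlap, but control rat 2 and cholate rat 8 nearly met, and the log2 change was -1.07 (SE 0.30, edgeR adjusted p = 0.0367). On leaving out 1 rat the adjusted p of Casp1 was 0.05 or more in 6 of 10 fits, reaching 0.0803. Ripk3, a kinase of necroptosis, had a log2 change of 1.01 (SE 0.26, adjusted p = 0.0261), also without overlap. It was called without control rat 9 (1.23, adjusted p = 0.00569), but its adjusted p was 0.05 or more in 3 of 10 leave-one-out fits, reaching 0.0714. Ripk3 overlaps the antisense gene LOC102552386. The sheddases of CX3CL1 and CXCL16 had log2 changes of -0.02 for Adam10 (interval -1.25 to 1.21) and -0.18 for Adam17 (interval -0.65 to 0.28). Adam10 ran from 151.4 to 173.8 CPM in the set of 6 libraries and from 24.6 to 62.7 CPM in the set of 4. Those of the calpain genes, whose products cleave pro-IL-1 alpha, were 0.21 for Capn1 (adjusted p = 0.159) and -0.32 for Capn2 (adjusted p = 0.204), and that of Casp8 was 0.10 (adjusted p = 0.687). Both calpain genes overlap an antisense gene.

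Of 21 genes of gp130 cytokines, their receptors and feedback, 14 passed the filter and none was called (2 at an unadjusted p under 0.05 by edgeR, against 29.0% of all genes, and none called by DESeq2). Lifr, the receptor chain of LIF, had 54 counts in controls and 46 on cholate and did not pass the filter, whereas the shared chain Il6st stood at 29.3 ± 13.5 and 28.4 ± 18.7 CPM (SD, n = 5). The cytokine gene Ctf1 had a log2 change of -0.74 (adjusted p = 0.0717) and Pias3, an inhibitor of STAT3, one of -0.44 (adjusted p = 0.154). Of 37 NF-kB pathway genes, inputs and targets, 33 passed and none was called (7 at an unadjusted p under 0.05 by edgeR, against 29.0% of all genes, and none called by DESeq2), with a median of 0.02. The inhibitor Tnip1 had a log2 change of 0.58 (adjusted p = 0.0263) and Birc2, a ubiquitin ligase, one of -0.51 (adjusted p = 0.0402), both under the fold limit. In leave-one-out fits the adjusted p was 0.05 or more in 4 of 10 for Tnip1 (up to 0.0732) and 6 of 10 for Birc2 (up to 0.0985). Of 28 other alarmins and epithelial cytokines, 16 passed and none was called. At an unadjusted p under 0.05 by edgeR there were 6, against 29.0% of all genes, and DESeq2 called 3, against 6.36%. Hmgb1, a nuclear alarmin, had a log2 change of -1.45 (adjusted p = 0.0215) at 150 counts in controls and 61 on cholate, a value that is uncertain because LOC102552204 overlaps it on the same strand. Tnfsf10, the death ligand TRAIL, had one of -1.56 (adjusted p = 0.0277). Its diets overlapped, with control rat 9 at 10.3 CPM and cholate rat 7 at 11.9 CPM. In leave-one-out fits the adjusted p was 0.05 or more in 3 of 10 for Hmgb1 (up to 0.0531) and 4 of 10 for Tnfsf10 (up to 0.0745).

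**Figure D4:**
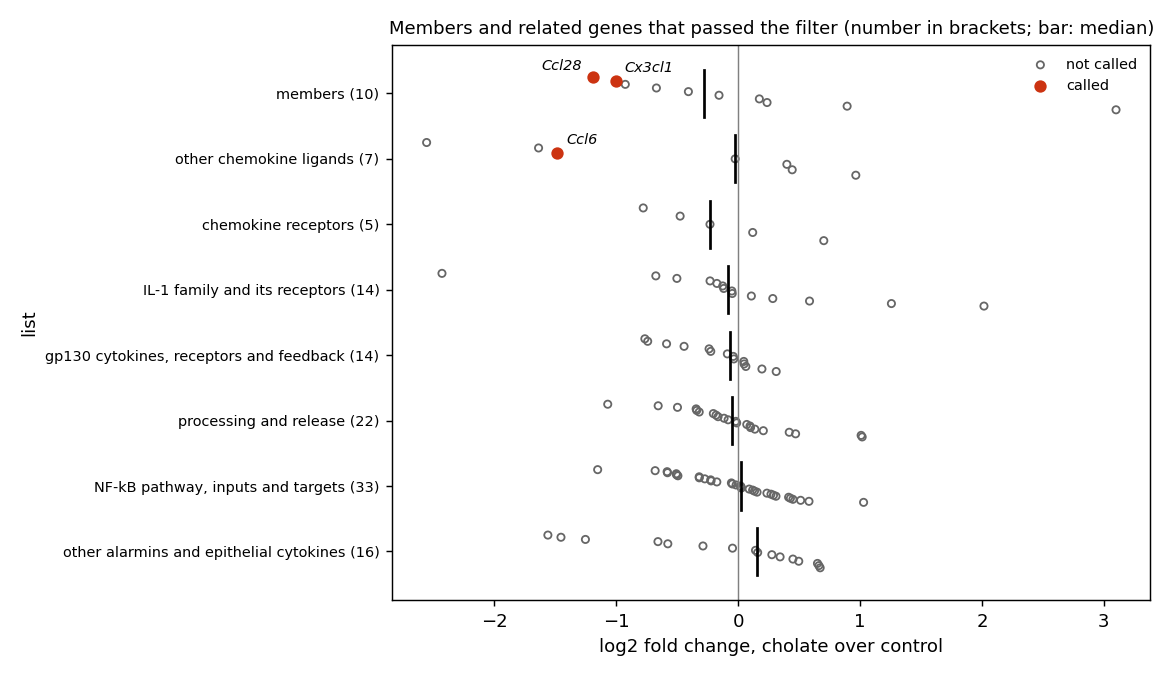
Log2 fold change of cholate over control (horizontal axis) for the genes of each list that passed the filter (vertical axis, number in brackets), with called genes filled and named and a bar at the median. Calls appear in 2 of the 8 lists, at Ccl28, Cx3cl1 and Ccl6, and all 3 are lower on cholate. Over all genes tested 2.12% were called lower and 1.10% higher. The call of Cx3cl1 was lost in 16 of 23 alternative settings.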

How the data were processed

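RNA sequencing libraries of distal colon epithelial cells from 5 control and 5 cholate rats were compared. Per the submitters' processing notes, reads were demultiplexed with bcl2fastq 1.8.4, aligned to rn6 with BWA 0.7.12-r1039 and normalized with edgeR 3.16.2. Counting program and use of strand: not given in the sources used here. The table deposited by the authors has, for each gene, raw counts, used for every test, and the authors' TMM-normalized signal, which was not used. Its effective length column equals the annotated coding bases in all 23422 genes, while a separate length column gives the gene span.

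After filterByExpr (by diet) and TMM scaling, the counts went into the edgeR 4.0.16 quasi-likelihood test with robust estimation in R 4.3.3, with Benjamini-Hochberg adjustment over 12385 genes. DESeq2 1.42.0 and limma 3.58.1 were alternatives. SE is the absolute log2 change over the square root of F. On simulated data for this comparison (12385 genes) 63 of 100 genes changed by 1.5 and 91 of 100 changed by 2.5 on the log2 scale were found. The changed genes were drawn only from those above a minimum mean CPM, so the scarcest genes are not covered. No change nearer the fold limit was simulated.

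The members and lists were chosen with earlier results of these data known. Named genes are the members, their receptors and processing enzymes, and in each other list the called genes and the 2 with the smallest adjusted p; Ccl9, Flt3 and the cell markers named beside results were chosen after their values were seen. Of the listed pathway genes, Ccr2 was not analysed here. The 2 sets of libraries were split by the sign of the first principal component after the data were seen. Whether each library was a separate preparation beyond coming from 1 rat is not stated. Intervals and the limit of 3 counts cover counting error or the spread between these rats only. Promoter windows are RefSeq on GRCr8, with 9 of 10 members matched by gene ID.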

Additional observations from a re-analysis of the deposited data

Results flagged for a closer look

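In 5 of 20 groups (10 genes in 2 diets), 1 rat lay so far from the other 4 that its gap to the nearest exceeded 0.71 of the group's range. Chance alone flags about 1 in 20 such groups if the values follow a normal distribution. That was not checked for CPM, and the rate may not hold for genes of few counts such as Il1a. Cholate rat 3 did so for Cxcl16, at 75.4 CPM (0.897 of the range), and for Il1a, at 13.2 CPM (0.813). Control rat 5 was low for Cxcl16 at 42.5 CPM (0.833), control rat 6 was high for Il1a at 1.39 CPM (0.711) and cholate rat 8 was low for Lif at 1.31 CPM (0.726). Cholate rat 3 was also the highest of the 10 rats for Il1rn, at 31.0 CPM.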

How the results depend on the processing

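No paired analysis was possible because control and cholate rats carry different numbers. Members called, 2 over all rats, numbered 1 with DESeq2 size factors (3.24% of all genes called), without a filter (2.22%), by limma-voom (3.90%) and within either set of libraries (7.93% and 0.922%), 0 by glmTreat (0.404%), 4 at an adjusted p under 0.05 with no fold limit (13.8%) and 1 to 2 on leaving out 1 rat (1.34% to 3.60%). Over all genes 3.21% were called, and 6.36% by DESeq2 and 6.69% with the sets as a term. DESeq2 also called 2, Ccl28 and Il1a, with Cx3cl1 at -0.99. Other chemokine ligands called, 1 over all rats, numbered 2 by DESeq2, at 0.05, in the set of 6 and with the sets as a term, and 0 by glmTreat and in the set of 4. From 0 over all rats, the calls numbered in the IL-1 family 2 by DESeq2 and at 0.05, 3 in the set of 6, 1 with the sets as a term and 0 to 1 on leaving out 1 rat. In processing and release they numbered 2 by DESeq2, at 0.05, in the set of 6 and with the term, and 0 to 1 on leaving out 1 rat. NF-kB genes reached 3 at 0.05, 2 in the set of 6 and 1 with the term, and other alarmins 3 by DESeq2 and at 0.05, 1 in the set of 6 and 2 with the term. Signs changed in uncalled genes. In the set of 4 Il18 was at 0.14, Il33 at -0.033, Lif at -0.32, Casp8 at -0.11, Cxcr4 at -0.20 and Adam10 at 0.27, and in the set of 6 Il6st was at 0.17. Adam10 was at 0.0097 with DESeq2 size factors, 0.0091 by DESeq2, 0.12 by limma-voom and 0.065 with the term. On leaving out 1 rat, Il18 ran from -0.47 to 0.018, Il18r1 from -0.054 to 0.25, Il6st from -0.25 to 0.23 and Adam10 from -0.26 to 0.24. The causes were not tested. Set sizes of 6 and 4 libraries limit what each set can show, and genes under about 1 CPM rest on few counts.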

Other observations

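Some genes outside the calls had single-rat or low-count patterns. Xcl1, a chemokine of NK and T cells, had 66 counts over the controls and 5 over the cholate rats. Its level ran from 0.192 to 1.14 CPM in controls and from 0 to 0.125 CPM on cholate, with no overlap, but it did not pass the filter. Tested without the filter it was not called (edgeR adjusted p = 0.0194). Ccl21, a lymphoid chemokine, had 326 counts over the cholate rats, and cholate rat 4 alone stood at 6.59 CPM while the other 9 libraries had at most 0.327 CPM. Cxcl13, the attractant of B cells, ran from 0.348 CPM in cholate rat 7 to 27.6 CPM in cholate rat 11.

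Il15, a cytokine that sustains intraepithelial lymphocytes, ran from 20.3 to 51.8 CPM in controls and from 8.28 to 22.5 CPM on cholate (log2 change -1.25, edgeR adjusted p = 0.0304, not called), and cholate rat 8 overlapped the controls. The antisense gene LOC102554114 overlaps it. The soluble inhibitor Il18bp was highest in control rat 9 at 12.2 CPM and lowest in cholate rat 4 at 2.22 CPM. These genes were chosen after their values were seen.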
